A study of Mus musculus with 2 samples.

Results

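The fibroblast growth factor (FGF) genes described here are 10 genes of the mouse, taken by symbol from GENCODE release M21 on mm10, out of 21851 protein-coding genes measured. They are the receptors Fgfr1, Fgfr2, Fgfr3, Fgfr4 and Fgfrl1, the secreted ligands Fgf1, Fgf2, Fgf6 and Fgf7, and the intracellular family member Fgf13. The rule that picks them uses their symbols and no measured value, though the list was drawn up with earlier results of these data known. Open chromatin was read by DNase-seq, in which DNase I cuts exposed DNA in isolated nuclei. The tissue was gastrocnemius, the calf muscle, from B6CASTF1/J males (a first-generation cross of C57BL/6J and CAST/EiJ) at an age of 36 days. There was 1 group of 2 animals with 1 library each, replicate 1 and replicate 2, and no treatment or other tissue was set against it. Nuclei of all cell types in the muscle were cut together, so fewer cells of a type and a less open site in each cell cannot be told apart.

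FGF ligands bind tyrosine kinase receptors on the cell surface together with heparan sulfate chains, and the paired receptors pass the signal through the adaptor Frs2 to the Ras and MAP kinase chain. In muscle the pathway is known for keeping satellite cells, the resident stem cells, dividing rather than fusing into fibres. Sprouty proteins and dual-specificity phosphatases are made in response and damp the signal.

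Each peak carries the authors' signal value, which measures how high cleavage rose there, and the authors deposited a shorter and a longer peak list for each library. Shorter lists are meant wherever no list is named. They held 50760 peaks with a median value of 1.76 in replicate 1 and 49230 with a median of 1.33 in replicate 2. Values were compared within a library only, as percentiles. A promoter peak lay within 500 bp of a start site of a protein-coding transcript, and its percentile is its place among the promoter values of all protein-coding genes that had one. A replicated region is a merged stretch with a peak of each library, and there were 32662 of these in the genome. A locus is the gene body with 10 kb either side. Of 8 muscle fibre markers, 5 had a promoter peak in both libraries, against 54.2% of all protein-coding genes. The 5 included creatine kinase Ckm at 6.45 and 3.37 and desmin Des at 6.21 and 3.11. The fast myosin genes Myh1 and Myh4 had no promoter peak in either library, and Tnnt3 had one in replicate 1 alone. Markers of other cells were open too, at 3 of 5 fibro-adipogenic progenitor genes, 3 of 4 smooth muscle and pericyte genes, 2 of 4 endothelial, 2 of 3 tendon, 1 of 5 satellite cell and 1 of 3 Schwann cell genes, and at 0 of 4 macrophage and 0 of 2 adipocyte genes. Beside the 54.2% these lists are too small to serve as a check of the tissue. The part of other cell types in the FGF signal was not tested.

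Promoters of 7 of the 10 FGF genes were open in both animals, at low to middling strength. Of all protein-coding genes 54.2% had a promoter peak in both libraries, so over 10 genes the count does not set the members apart. The open ones were Fgfr1, Fgfr2, Fgfr3, Fgfrl1, Fgf1, Fgf2 and Fgf6, and Fgfr4, Fgf7 and Fgf13 had none in either library. Around the open promoters and genes lay 36 replicated regions, from which 5 are printed below because the results turn on them: the strongest regions that belong to Fgfr1, Fgf2 and Fgfrl1 and, chosen after their values were seen, the open stretch downstream of Fgfr4 and the promoter of Fgf6. Each is the plus strand of mm10, which is also the strand of the gene, written 5′ to 3′, and capitals mark bases inside footprints of both libraries. A footprint is a short stretch within open DNA that the authors called as protected from cutting.

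Fgfr1 intron, chr8:25537281-25537520: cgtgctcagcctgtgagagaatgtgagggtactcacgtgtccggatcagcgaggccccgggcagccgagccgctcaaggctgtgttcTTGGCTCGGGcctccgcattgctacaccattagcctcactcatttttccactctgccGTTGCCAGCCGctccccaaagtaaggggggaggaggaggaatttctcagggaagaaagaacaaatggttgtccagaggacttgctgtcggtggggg
Fgfrl1 promoter, chr5:108693921-108694220: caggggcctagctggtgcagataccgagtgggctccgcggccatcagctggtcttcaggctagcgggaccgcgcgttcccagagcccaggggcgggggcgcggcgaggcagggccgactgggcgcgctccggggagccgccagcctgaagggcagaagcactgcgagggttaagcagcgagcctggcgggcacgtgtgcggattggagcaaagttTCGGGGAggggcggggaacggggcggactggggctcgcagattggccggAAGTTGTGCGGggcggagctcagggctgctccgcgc
Fgfr4 downstream, chr13:55171679-55171978: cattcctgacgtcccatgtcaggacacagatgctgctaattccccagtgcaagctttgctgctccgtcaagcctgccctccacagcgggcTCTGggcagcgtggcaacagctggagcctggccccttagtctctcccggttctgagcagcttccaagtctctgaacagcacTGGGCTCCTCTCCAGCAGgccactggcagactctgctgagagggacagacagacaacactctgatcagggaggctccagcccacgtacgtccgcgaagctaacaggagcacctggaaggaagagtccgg
Fgf2 internal promoter, chr3:37380561-37380820: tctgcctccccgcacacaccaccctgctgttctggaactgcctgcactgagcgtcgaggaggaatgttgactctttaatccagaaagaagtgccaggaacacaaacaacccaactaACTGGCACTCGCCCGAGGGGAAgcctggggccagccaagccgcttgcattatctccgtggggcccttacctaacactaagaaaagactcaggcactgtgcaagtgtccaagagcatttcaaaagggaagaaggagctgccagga
Fgf6 promoter, chr6:127015051-127015350: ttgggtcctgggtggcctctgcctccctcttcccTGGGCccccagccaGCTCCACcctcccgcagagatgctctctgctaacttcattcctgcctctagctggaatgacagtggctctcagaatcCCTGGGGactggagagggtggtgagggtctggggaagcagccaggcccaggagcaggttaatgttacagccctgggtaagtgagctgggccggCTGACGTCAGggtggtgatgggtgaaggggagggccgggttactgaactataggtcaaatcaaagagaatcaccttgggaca

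Fgfr1 encodes the receptor through which satellite cells answer FGF2. Its promoter peak, at chr8:25518641-25518860 in replicate 1 and chr8:25518641-25519100 in replicate 2, had a value of 5.82 in replicate 1 and 2.69 in replicate 2. These stood at percentiles 52.3 and 34.2 of promoter values, and 52.3 was the only value of a member above the middle of its library. The peak covered 4 start sites that lie within 36 bp of each other, while the start site 13.5 kb further in had no peak in either list of either library. The locus (gene body chr8:25513654-25575718) held 6 replicated regions. The intronic region printed above had 5.56 and 3.06, at percentiles 86.2 and 79.9 of all peaks, against 87.0 and 76.7 for the promoter region, so the promoter was higher in replicate 1 and the intron in replicate 2. It was 240 bp wide with 2 footprints shared by both animals. Its bases TTGGCTCGGG and GTTGCCAGCCG are those shared footprints. Further along the gene lay regions with 2.97 and 1.64 at chr8:25543341-25543520 and with 3.33 and 2.10 at chr8:25554781-25555074, both in introns. A region at chr8:25585061-25585280, downstream of Fgfr1 and inside the body of the neighbouring gene Letm2, had 2.68 and 3.05. This region (percentiles 68.4 and 79.9) and a weak one beside the promoter, chr8:25519141-25519640 with 1.45 and 1.73 (percentiles 39.6 and 62.0), were those of the 6 that stood at a higher percentile in replicate 2.

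Fgfrl1 encodes a receptor that binds FGFs but lacks the kinase domain. Its promoter value was 5.40 in replicate 1 and 2.17 in replicate 2, at percentiles 48.7 and 26.2, so the libraries ranked it differently. The region at chr5:108693861-108694280 was the only replicated one in its locus, and it held 2 shared footprints. Its GC content was 70.7%. In the printed window the letters GGGCGG, which SP and KLF factors bind, occur 4 times, at bases 90 to 95, 224 to 229, 236 to 241 and 275 to 280, and 1 base of the last copy falls in a shared footprint.

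Fgfr2 encodes a receptor whose splice forms differ between epithelial and mesenchymal cells. Its promoter at chr7:130266181-130266500 had 2.88 in replicate 1 and 1.63 in replicate 2, at percentiles 25.1 and 17.6. The annotated gene is 2961 kb long because of a transcript that starts inside Ctbp2, far upstream, and 30 other protein-coding genes overlap it, of which 19 had a promoter peak in both libraries. Taking these genes with 10 kb either side apart left 1060 kb and 12 replicated regions, against 64 in the whole span. Only 5 of the 12 lay within 10 kb of the 102.483 kb principal transcript, and 7 lay beyond it. Of the 5, an intronic region at chr7:130215821-130216000 had 2.35 and 2.02, at percentiles 63.7 and 67.7 of all peaks, against 71.1 and 59.4 for the promoter region. A region 7.1 kb before the start site, at chr7:130273261-130273480, had 1.95 and 1.55 and held 2 shared footprints. Among the 7 beyond, the one at chr7:132213538-132213740, highest by its lower percentile, had 1.95 and 2.33 and lay 1947 kb from the nearest Fgfr2 start site that was used. The density of replicated regions in what was left was 1.13 per 100 kb. The median of 2.56 over all protein-coding genes comes from loci with no gene taken apart, so the 2 densities are not comparable.

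Fgfr3 encodes the receptor best known as a brake on bone growth. Its promoter was the weakest of the open members in replicate 1, with 1.41, and had 1.19 in replicate 2, at percentiles 8.58 and 10.5. Both values lay below the medians of all peaks. The region at chr5:33721571-33722080 was the only replicated one of the locus and the only open member promoter with no shared footprint.

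Fgfr4 encodes a receptor known from liver and from myogenic cells. Its start site at chr13:55152640 had no peak in either shorter list. In the longer lists peaks of 0.949 in replicate 1 and 0.795 in replicate 2 lay 187 and 154 bp downstream of it, at percentiles 9.63 and 10.7 of that list's promoter values. The locus was nonetheless open in both animals beyond the end of the gene at chr13:55168759. The region at chr13:55169041-55169380 had 3.45 in replicate 1 and 2.04 in replicate 2. The next, at chr13:55171581-55172076, had 1.84 and 2.03, and its centre is printed above with the footprint TGGGCTCCTCTCCAGCAG in capitals. The third, at chr13:55178723-55178841, had 1.33 and 2.00. All were over 1 kb from any annotated start site, with 0, 3 and 2 shared footprints, and the files do not tie them to Fgfr4 rather than to another gene.

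**Figure D1:**
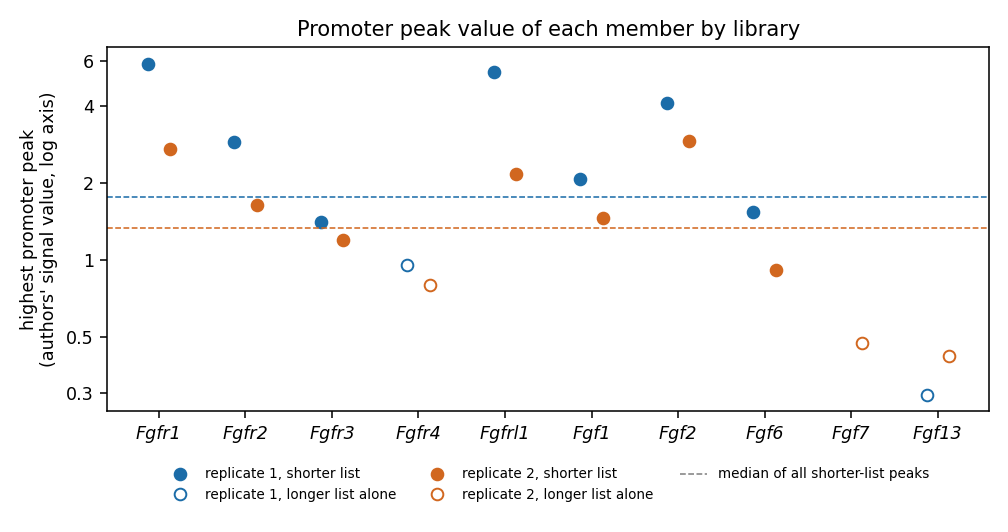
Value of the highest peak within 500 bp of a start site (log axis, the authors' signal value) for the 10 genes in replicate 1 (blue) and replicate 2 (orange); filled points come from the shorter lists, open points from the longer lists where the shorter had none, and dashed lines are the medians of all shorter-list peaks, 1.76 and 1.33. Fgfr1, Fgfrl1 and Fgf2 stand highest, Fgfr4, Fgf7 and Fgf13 have open points or none.

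Fgf2, the basic FGF that is stored on heparan sulfate in the matrix, had its strongest promoter peak inside the gene. The start site at chr3:37380755, used by a pair of shorter transcripts and 32.4 kb beyond the first, had 4.09 in replicate 1 and 2.90 in replicate 2. These stood at percentiles 37.6 and 37.3, the closest match between the libraries among the open members, and 2.90 was the highest member value of replicate 2. The region at the first start sites, chr3:37348266-37348719, had only 1.44 and 1.41. A second region at chr3:37380281-37380498, just before the internal start, had 2.60 and 1.49. The locus had 7 replicated regions and 18 shared footprints. Intronic regions at chr3:37399101-37399320 and chr3:37402321-37402580 had 3.45 and 1.94, and 2.71 and 2.12. The strongest region of all 36, with 9.54 and 5.89 and 8 shared footprints, lay at chr3:37419561-37419960 downstream of Fgf2, at the start sites of Nudt6 and Spata5, so position assigns it to those genes. Nudt6 is transcribed from the opposite strand and overlaps Fgf2 at the end of the gene.

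In the printed Fgf2 window 22 bases in a row, ACTGGCACTCGCCCGAGGGGAA, lie in a footprint of both animals. Replicate 1 had this footprint at chr3:37380675-37380698 and replicate 2 at chr3:37380677-37380714. The letters GGAATG, which TEAD factors bind, occur at bases 61 to 66 of the window, outside the footprint.

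Fgf6 encodes a ligand made mainly in skeletal muscle. Its promoter value was 1.54 in replicate 1 and 0.913 in replicate 2, at percentiles 10.3 and 6.31, which made it the weakest open member in replicate 2. Both values were below the median peak of their library. These peaks lay upstream of the start site at chr6:127015586, with centres 375 and 425 bp before it. Replicate 2 alone had a further peak of 0.736 at chr6:127015664-127015747, centred 120 bp past the start. In the longer list the replicate 1 peak, chr6:127015041-127015600, covered the start site. In the weak upstream region 3 footprints overlapped between the animals, and 29 of the 300 printed bases were in them. At bases 220 to 227 stands TGACGTCA, the cyclic AMP response element (CRE) to which CREB and ATF factors bind, and all 8 of its bases lie in a shared footprint, at chr6:127015268-127015284 in replicate 1 and chr6:127015269-127015278 in replicate 2. This was the only replicated region of the 36 whose central 200 bp held those letters, against 1.54% of all replicated regions, and a match does not show which factor was bound. A further peak with 1.85 over the gene's exon at chr6:127024901-127025200 was in the shorter list of replicate 1 alone, and in the longer lists both animals had it, at 1.85 and 0.651.

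Fgf7, the keratinocyte growth factor that mesenchymal cells make for epithelia, had no promoter peak in either shorter list. In the longer lists replicate 2 had a peak of 0.473 at the start site chr2:126034658 and replicate 1 had none. The locus held no replicated region. Replicate 1 alone had intronic peaks of 1.02 at chr2:126039783-126039868 and 1.21 at chr2:126084461-126084640, in a stretch that is also within Fam227b. In the longer lists replicate 2 had both as well, at 0.631 and 0.552.

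**Figure D2:**
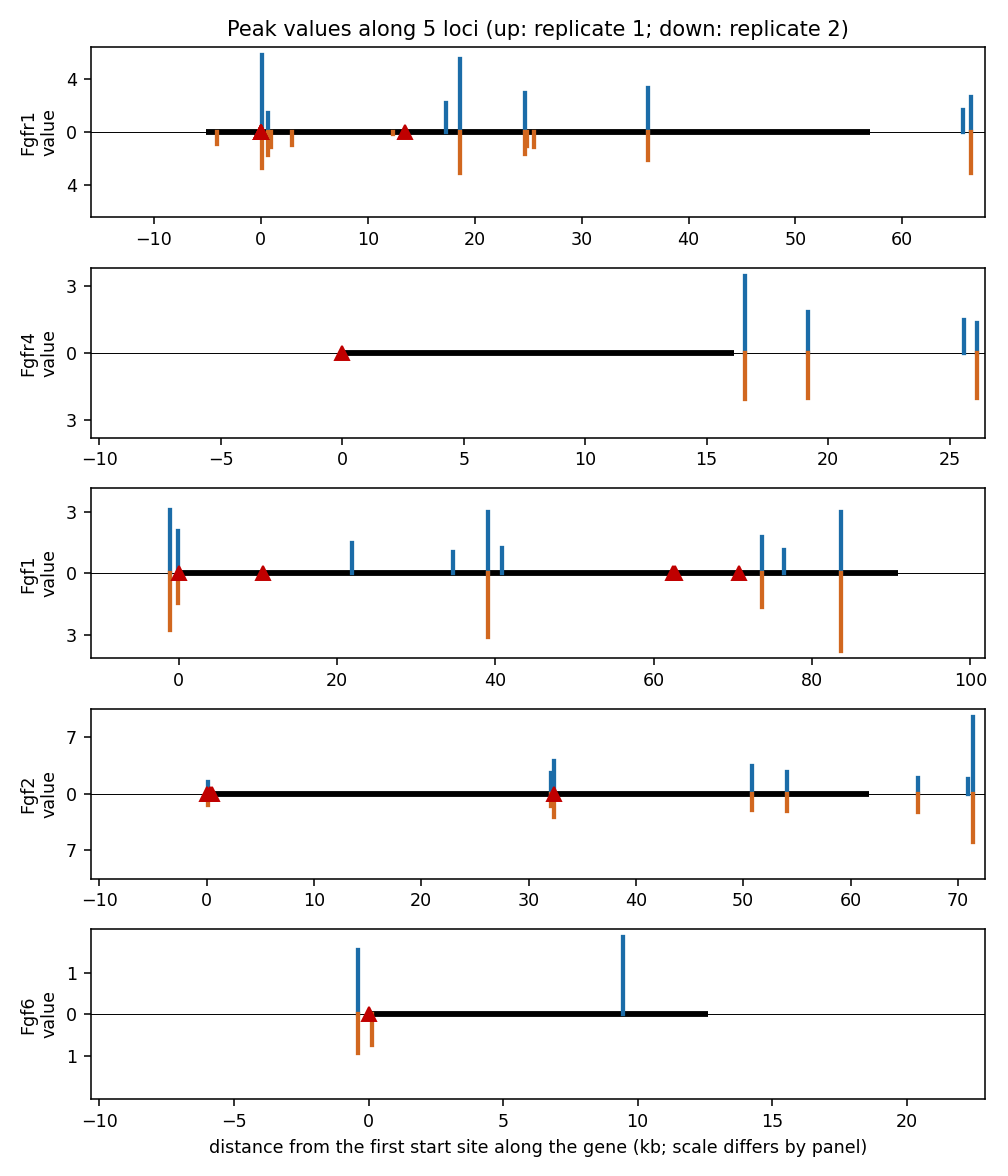
Peak values (the authors' signal value) along the loci of Fgfr1, Fgfr4, Fgf1, Fgf2 and Fgf6, with replicate 1 upward in blue and replicate 2 downward in orange, against distance in kb from the first protein-coding start site along the gene; thick bars are the gene bodies and red triangles the start sites. Fgfr1 has an intronic region with 5.56 and 3.06 and a promoter with 5.82 and 2.69. Fgfr4 is open past its end and has no shorter-list peak at its start. The tallest Fgf2 line, 9.54, stands at the start sites of Nudt6 and Spata5.

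Fgf1, the acidic FGF that binds every kinase-bearing FGF receptor, had a promoter value of 2.06 in replicate 1 and 1.45 in replicate 2, at percentiles 16.5 and 14.9. The peak was at the most upstream of 5 start sites. The other 4, which lie 10.7 to 70.7 kb further in, had no peak in either list. Fgf1 nevertheless had 5 replicated regions and 10 shared footprints. The strongest in replicate 1 lay 1139 bp before the first start site, with 3.12 and 2.79. Intronic regions had 2.98 and 3.78, 2.98 and 3.10, and 1.79 and 1.65, and all 3 stood at a higher percentile of all peaks in replicate 2 (85.0, 80.3 and 59.9) than in replicate 1 (72.2, 72.2 and 51.0). All 5 regions also lie inside the body of Arhgap26, and position does not tell the genes apart.

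Fgf13 encodes a factor that stays inside the cell, where it binds voltage-gated sodium channels and microtubules. Its 526 kb locus on the X chromosome held no shorter-list peak of either library. In the longer lists there were 5 peaks in replicate 1 and 9 in replicate 2, with highest values of 0.456 and 0.421, far below those lists' medians of 1.11 and 0.795. Within 500 bp of the first start site, chrX:59568071, replicate 1 had 0.296 at chrX:59567934-59568019 in these lists. Replicate 2 had 0.421 at chrX:59567301-59567700, so the peaks of the 2 libraries did not overlap. Of 565 protein-coding genes at least 300 kb long, 54 (9.56%) likewise had no shorter-list peak, 5 of them among the 26 on the X chromosome.

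With both longer lists in place of the shorter ones, promoter peaks were in both libraries at 9 of 10 members (59.0% of all protein-coding genes), Fgf7 being the exception. Overlap was not required, and the Fgf13 peaks of the 2 libraries did not overlap. By the authors' false discovery rates (q-values, listed for runs of bases below 0.05), 9 members had a run at the promoter in both libraries, against 59.9% of all protein-coding genes, and Fgf7 was again the exception. The lowest q at the Fgfr1 promoter was 8.0e-21 in replicate 1 and 5.7e-20 in replicate 2. At Fgfr4 it was 0.00104 and 0.0180, at Fgf13 0.0296 and 0.00231, and at Fgf7 replicate 1 had no run and replicate 2 reached 0.0453.

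The 7 open promoters fell in the order Fgfr1, Fgfrl1, Fgf2, Fgfr2, Fgf1, Fgf6 and Fgfr3 in replicate 1. In replicate 2, 4 of the 6 neighbouring pairs kept this order, and Fgfrl1 with Fgf2 and Fgf6 with Fgfr3 turned round, so neither pair can be ranked with 2 animals. Fgfr1 and Fgf2 turned too: Fgf2 was highest in replicate 2 and Fgfr1 in replicate 1. The median percentile of the 7 was 25.1 in replicate 1 and 17.6 in replicate 2. Base composition differed between start sites, by the ratio of observed to expected CpG in the 1 kb around them. At the start site nearest the promoter peak it was 0.697 to 0.921 over the 5 receptors. At the internal Fgfr1 start, which had no peak, it was 0.365. Among the secreted ligands it was 0.199 at the open Fgf1 start, 0.603 to 0.750 at the first Fgf2 starts, 0.227 at the internal Fgf2 start, 0.410 at Fgf6 and 0.380 at Fgf7. Medians over the genome were 0.752 for 11849 genes with a promoter peak in both libraries and 0.201 for 9025 genes with none in either. The open Fgf1 start and the internal Fgf2 start lay near the median of closed promoters. The Fgfr4 start and the first Fgf13 start, at 0.697 each, lay near that of open ones.

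**Figure D3:**
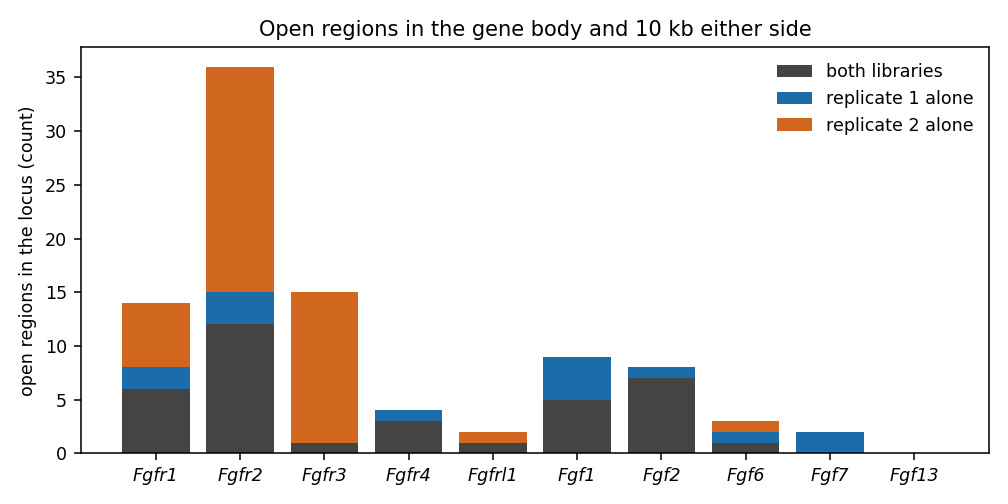
Number of open regions in the locus of each gene (body and 10 kb either side, genes inside the Fgfr2 span taken apart), stacked as regions found in both libraries (grey), replicate 1 alone (blue) and replicate 2 alone (orange). Of the 43 regions of replicate 2 alone, 21 are at Fgfr2 and 14 at Fgfr3, and Fgf13 has no region.

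Counting promoters and all other sites, 8 of 10 members had a replicated region in their locus (69.7% of all protein-coding genes), with a median of 2 regions a member and 1 a gene over all protein-coding genes. Regions over 1 kb from every annotated start site occurred at 5 members, Fgfr1, Fgfr2, Fgfr4, Fgf1 and Fgf2, and at 32.2% of protein-coding genes. The members were not matched on gene length, and these counts were not read as a difference from other genes. Of the 36 regions, 18 were intronic, 10 at promoters, 6 downstream, 1 upstream and 1 in an exon. Shared footprints were present at 7 members (67.6% of all protein-coding genes), with 65 in all and 31 of the 36 regions holding at least 1. Per 100 kb of locus the replicated regions numbered 8.56 at Fgf2, 8.31 at Fgfr4, 7.31 at Fgfr1 and 4.51 at Fgf1. They numbered between 2.83 and 3.07 at Fgfr3, Fgfrl1 and Fgf6, against a median of 2.56 over all protein-coding genes. Neighbouring genes were taken apart only at Fgfr2, so the Fgf2 number includes the region at the start sites of Nudt6 and Spata5.

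Between the animals, values over the 36 regions had a Spearman correlation of 0.76, across sites that share the same libraries. At the 10 promoter regions 7 had the higher within-library percentile in replicate 1, and at the other 26 regions 18 had it in replicate 2. Over the genome 50.4% of 13125 replicated promoter regions and 53.2% of 19537 others stood higher in replicate 2. Regions of a single library in the shorter lists were of different kinds. Some of each kind had peaks of both libraries in the longer lists. Examples are chr7:130215381-130215640 with 1.45 and 0.486 and chr5:33738001-33738240 with 0.937 and 0.986. The 14 of replicate 1 alone had values from 0.777 to 2.23 with a median of 1.34. The 43 of replicate 2 alone ran from 0.0920 to 1.19 with a median of 0.276, far below that library's median peak of 1.33.

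**Figure D4:**
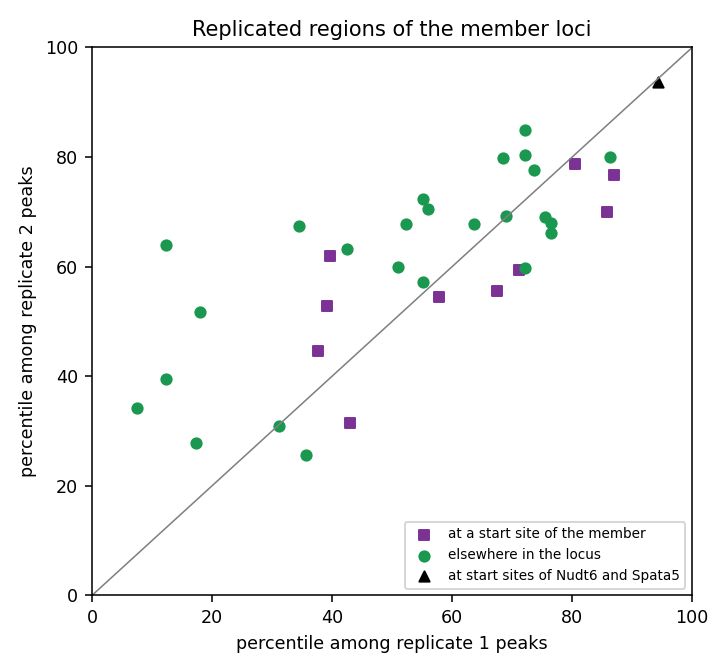
Percentile of each of the 36 replicated regions among all shorter-list peaks of replicate 1 (x axis) and of replicate 2 (y axis), for regions at a start site of the member (squares), elsewhere in the locus (circles) and at the start sites of Nudt6 and Spata5 (triangle); the line marks equal percentiles. Most squares lie below the line and most circles above it, 7 of 10 and 18 of 26 counting the triangle.

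Most regions of replicate 2 alone sat at Fgfr2 and Fgfr3. At Fgfr2, 20 of them filled chr7:130318861-130333640, a stretch of 14.78 kb picked out after the values were seen, with values from 0.0920 to 0.782 and a median of 0.164. Bases with q at or below 0.05 numbered 9482 there in replicate 2 and 602 in replicate 1, and 1 replicated region lay inside, with 0.999 and 1.37. At Fgfr3, 14 regions of replicate 2 alone had values from 0.164 to 0.986, 13 of them under 0.5, and 9 lay at exons. Runs of low q covered 7264 bases of the Fgfr3 locus in replicate 2 and 565 in replicate 1. The lowest value of any peak was 0.0986 in replicate 1 and 0.0591 in replicate 2, and values rose in steps of 0.0123 and 0.00657. The part of sequencing depth in this difference was not tested.

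Motif letters were searched on both strands in the central 200 bp of each region, with a match anywhere in that window and overlaps between motifs allowed. The letters TTGGCA of NFI factors were in 9 of 36 regions (25.0%) and 13.9% of all 32662 replicated regions. Among the 9 are those at chr7:130381081-130381262, chr7:131882361-131882540, chr7:131899436-131899620 and chr7:132196742-132196848. These belong to the 7 Fgfr2 regions that lay beyond its principal transcript and 10 kb. CAGCTG, an E-box of MyoD family factors, was in 8 (22.2%, against 19.8%), CACCTG in 6 (16.7%, against 13.9%) and GGGCGG in 11 (30.6%, against 34.7%). TGANTCA of AP-1 was in 4 (11.1%, against 6.59%), GGAATG of TEAD in 4 (11.1%, against 9.71%) and AGGTCA of nuclear receptors in 4 (11.1%, against 10.7%). CACGTG and TGTGGT (RUNX) were in 2 each (5.56%, against 5.73% and 10.6%), and the CTCF motif in 1 (2.78%, against 5.98%). CCGGAAG of ETS factors was in none of these windows, against 7.05% of all regions, though the printed Fgfrl1 promoter holds it at bases 261 to 267, outside the central 200 bp, with 3 of its bases in a shared footprint. The MEF2 motif (0.456% of all regions) and the CArG box (0.821%) were in none either. With 36 regions these shares rest on few matches, and they were not tested.

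Genes that act downstream of the receptors nearly all had an open promoter, and most of the FGF genes outside the members did not. Over 6 lists of pathway genes, 50 of 73 had a promoter peak in both libraries, against 54.2% of all protein-coding genes. All 14 adaptors and transducers were open, with median percentiles of 78.0 and 77.3, led by the MAP kinase kinase Map2k1 at 21.7 and 10.4, the GTPase Hras at 12.0 and 7.16 and the FGF receptor substrate Frs3 at 12.4 and 6.95. Of 14 feedback regulators (labelled inhibitors) 12 were open. Among them were the ubiquitin ligase Cbl at 11.4 and 8.04, the phosphatase Dusp5 at 9.76 and 7.95 and Spry4 at 8.32 and 5.12. Flrt1 and Spred3 had no promoter peak. Spry1, named after its values were seen, had 7.24 in replicate 1 and 11.3 in replicate 2, percentiles 62.6 and 98.7. Sprouty-related Spred1, named likewise, had 2.26 and 5.31, percentiles 18.7 and 69.8. All 6 transcription factors that FGF signals induce were open, the highest being Egr1 at 13.8 and 9.32, Etv5 at 15.1 and 7.89 and Fos at 4.34 and 5.07.

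Co-receptor and heparan sulfate genes were open at 13 of 18, led by the matrix proteoglycan perlecan (Hspg2) at 10.9 and 6.97 and the chain-building enzymes Ext1 at 9.69 and 5.63 and Hs2st1 at 11.3 and 5.28. Fgfbp1, an FGF carrier protein, and Kl, the co-receptor of FGF23, had none in either library. Of the 17 other FGF genes 5 were open, the highest being Fgf20 at 3.51 and 2.48, Fgf18 at 3.43 and 2.16 and Fgf9 at 1.86 and 1.50. A further 9, Fgf11 and Fgf14 among them, lacked a promoter peak in both animals. The highest percentile among the 5 open genes of this list was 31.9 in replicate 1 and 31.1 in replicate 2. Among genes whose proteins partner the intracellular FGFs, the muscle sodium channel gene Scn4a lacked a promoter peak in both animals. The sodium channel gene Scn8a and the scaffold gene Mapk8ip2 had one in replicate 2 alone, at 0.644 and 1.30.

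**Figure D5:**
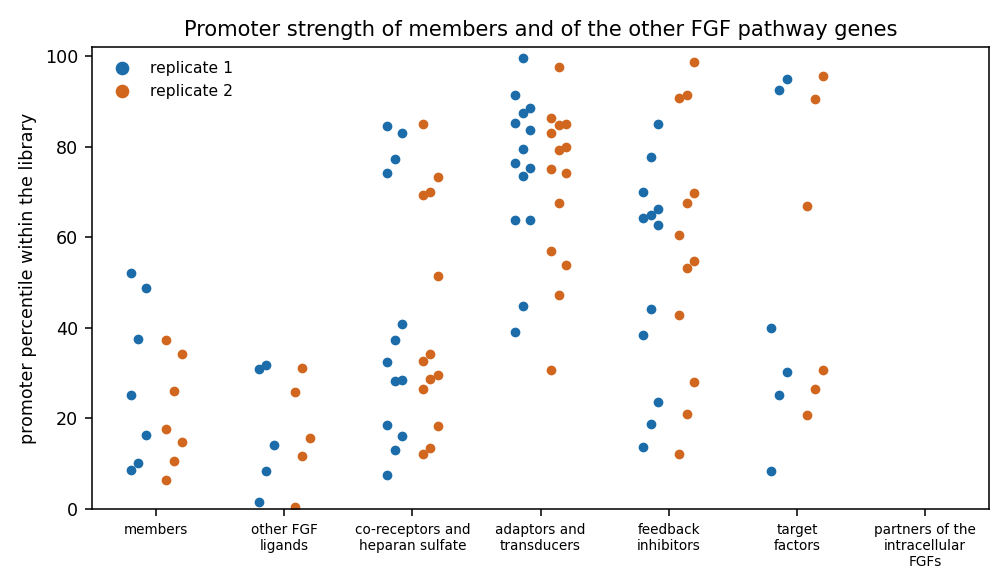
Within-library percentile of the promoter value for the members and for the genes of each pathway list that had a promoter peak in both libraries, replicate 1 in blue and replicate 2 in orange, 1 point per gene. The members range up to 52.3, the other FGF genes (labelled ligands) up to 31.9, and adaptors and transducers have medians of 78.0 and 77.3. The partners of intracellular FGFs have no point since none had a peak in both libraries.

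The genes most like Fgf2 by 3 numbers (the promoter percentile in each library and the percentile of the count of distal regions, summed absolute difference) were Nfatc1 at 1.41 percentile points, Hspa12a at 2.81 and Fam129b at 2.97. For Fgfr2 they were Usp29 at 2.13, Col27a1 at 2.45 and Aurkb at 3.26. Each rests on 2 libraries. The 10 distal regions counted for Fgfr2 include the 7 that lay beyond its principal transcript and 10 kb.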

How the data were processed

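DNase-seq files of 2 gastrocnemius libraries on mm10 were used. The authors called peaks, footprints and false discovery rates in each library alone, per the listing among the deposited files. Which aligner and callers they ran is not given in the sources used here, nor is the treatment of reads from CAST/EiJ alleles. The peak values are the authors' signal height, whose scaling is not stated. The authors' q-values (FDR cut rate, a kind of p-value adjusted for multiple testing) are deposited for runs of bases below 0.05. The deposited footprint score was 0.01 on every line, so only positions were used. The depth in reads is unknown; within a library all distinct values were multiples of a step (0.0123 and 0.00657, 100% within 0.05 of a step).

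From these files promoter peaks, merged regions (overlap of at least 1 bp), shared footprints, q-value runs and motifs were counted with Python 3.11.15 and pysam 0.24.0, with start sites of basic protein-coding transcripts of GENCODE release 21 for the mouse. Sequences are from the RefSeq copy of GRCm38.p6, indexed with samtools 1.23.1. The counting was tested on simulated data. With 1 group of 2 animals no test between groups exists, so values are given for both animals and members are set beside all protein-coding genes. Named pathway genes were up to 3 with the highest promoter value by the lower percentile of both libraries and up to 2 without a peak in alphabetical order, of which 1 is not reported here. The printed regions of Fgfr1, Fgf2 and Fgfrl1 were each the strongest of their own locus by the lower percentile, leaving out starts of other genes. They were not the strongest over all members. No Fgf1 region was printed, though its strongest had a lower percentile of 73.6 among all peaks, against 70.0 for the Fgfrl1 region. The printed Fgfr4 and Fgf6 regions were not picked by this rule. At most 1 region a member was printed. The members and pathway lists were chosen with earlier results of these data known. Spry3 had no row in the annotation used and was left out. Alternatives were the longer lists, a threshold at the list median, other promoter, flank and distal distances, all transcripts, a reciprocal overlap of 50%, a q-value of 0.001, other Fgfr2 spans and each library alone.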

Additional observations from a re-analysis of the deposited data

How the results depend on the processing

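The count of 7 members with an open promoter was 9 with the longer lists, 5 with peaks at or above the median of their list, and 7 at 250 bp, at 1000 bp, with all transcripts and in each library alone. The total of 36 replicated regions was 57 with 50 kb flanks, 23 with peaks at or above the list median and 88 over the whole Fgfr2 span, by the construction of each. Without replicate 1 or replicate 2 it was 50 to 79, since a region then needs a single library. Members with a distal region numbered 9 with the longer lists, against 5. Each library alone gave 6 to 7 members with a distal region, 8 to 9 with a footprint in an open region, 9 to 10 with a low-q run at the promoter and 51 to 55 open pathway genes. Over all members or all pathway genes 44 alternative counts stayed within 1.5 times those reported and 5 did not. Among single lists and members, 76 alternative values stayed close and 13 moved. For lists, close again meant within 1.5 times. For members it meant within the standard deviation of the percentiles of both libraries, by which 39 values stayed close and 8 moved. Under that rule each library alone counts as close by construction. The Fgfr1 percentile was 34.2 without replicate 1 and 52.3 without replicate 2, and that of Fgfrl1 was 26.2 and 48.7. Among the 17 other FGF genes the count of 5 was 8 with the longer lists, 3 at or above the list median and 1 at 250 bp, and among the partners of intracellular FGFs the count of 0 was 1 with the longer lists and 2 without replicate 1. The mean promoter percentile over both libraries, 15.7 for Fgf1, 21.4 for Fgfr2, 37.4 for Fgf2, 8.28 for Fgf6 and 9.56 for Fgfr3, was 22.6, 27.9, 42.6, 15.2 and 16.8 in the same gene order with the longer lists. At or above the list median it was 3.34 for Fgf1, 9.86 for Fgfr2 and 28.3 for Fgf2. No paired analysis was possible because there was 1 group. Depth in reads is unknown, so a missing peak means none at the authors' threshold, and the part of depth in weak sites seen in a single animal was not tested. Hybrid animals carry CAST/EiJ alleles that the mm10 sequence does not show.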
